A study of Mus musculus with 9 samples.

Results

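Macrophages that lack the adaptor MyD88 were set against macrophages that lack the adaptor TRIF, each pair at the same time of lipopolysaccharide (LPS) stimulation. The comparison used 6 of the 9 arrays of the series, chosen by their genotype labels: 3 from MyD88 KO and 3 from TRIF KO cells. Each genotype had 1 array unstimulated (0 h), 1 at 1 h and 1 at 4 h of 100 ng/ml LPS. The 3 wild-type arrays took no part in the test. They counted in the filter on low values and in the choice among probe sets of a gene, and are quoted last as a benchmark. All cells were peritoneal macrophages from mice injected with thioglycollate, an irritant that draws monocytes into the cavity, so this recruitment is shared by every group. The labels state neither the age, sex or background strain of the mice nor whether animals were pooled. Of 12394 genes on the array, 10032 reached a level of 6 on the log2 scale on at least 1 of the 9 arrays and were analysed. Rab27a, with a highest value of 6.0002, lay just inside this limit and Serping1, with 5.9999, just outside it.

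Toll-like receptor 4 (TLR4) senses LPS and signals through both adaptors. MyD88 recruits IRAK kinases at the cell surface and leads to early activation of NF-kB and MAP kinases, and it also serves the interleukin 1 receptor family and most other Toll-like receptors. TRIF, encoded by Ticam1, acts mainly from endosomes, activates the kinases TBK1 and IKK-epsilon and the factor IRF3, and so gives rise to interferon beta, which in turn induces antiviral genes through a secreted loop. Setting one knockout against the other therefore contrasts cells left with only the TRIF arm of TLR4 with cells left with only the MyD88 arm.

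A difference is the log2 level in MyD88 KO minus that in TRIF KO, so that a positive value means a higher level without MyD88. A difference of 1 is 2-fold. The mean over the 3 times was tested with limma on the 6 arrays with time as a block, and a gene was called at a Benjamini-Hochberg adjusted p under 0.05 over all 10032 genes. The times stand in for replicates, so a gene whose difference changed between times has a larger error. No label ties the arrays to separate mice or cultures. These p-values therefore measure only the spread between 6 arrays, which may be technical, and precision is limited by their small number.

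The arrays were alike in scale, with medians of 7.01 to 7.07, and the 15 pairs of knockout arrays correlated across genes at 0.983 to 0.996. Macrophage identity transcripts were high on both sides, with a summed linear level of 82100 to 87100 in MyD88 KO, 84700 to 90000 in TRIF KO and 87000 to 91500 in wild type over 17 genes. Of 33 measured markers of 9 other cell types, 1 was called and 3 had an unadjusted p under 0.05. Among all 10032 genes 3.56% were called, a share near that of the markers, and 1571 had an unadjusted p under 0.05. The called marker was Col3a1, a fibrillar collagen of fibroblasts, higher by 0.43 in MyD88 KO (limma, adjusted p = 0.00771). It read 6.59, 6.86 and 6.75 in MyD88 KO, against 6.05, 6.42 and 6.44 in TRIF KO. Wild type read 5.42, 5.34 and 5.10. The 6 fibroblast markers summed to 1280 to 1390 in MyD88 KO and 1210 to 1410 in TRIF KO, so their ranges overlapped between the knockouts, and to 917 to 943 in wild type. Their part in the results below was not tested. In such bulk samples, fewer cells of a type and less RNA per cell cannot be told apart.

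The targeted gene could be checked on one side only. Myd88 read 9.30, 9.19 and 9.34 at 0, 1 and 4 h in MyD88 KO, against 9.56, 9.54 and 9.96 in TRIF KO. The MyD88 KO arrays were all below the TRIF KO arrays, yet most of the signal was present. The mean difference was -0.41 ± 0.074 (SE, n = 3 times; limma, adjusted p = 0.0242), and it was not called without the 1 h arrays, where the difference was -0.45. The labels do not say whether the probe set falls inside the deletion, so this reading may check nothing. Ticam1 was not analysed here.

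Across the 3 times, limma called 155 genes higher in MyD88 KO (1.55% of genes tested) and 202 lower (2.01%), and 1571 genes had an unadjusted p under 0.05. All 357 had the same sign at 0, 1 and 4 h, as did 36.7% of all genes. All MyD88 KO arrays lay above all TRIF KO arrays for 114 of the 155 (background 6.35% of genes), and below them for 103 of the 202 (background 7.55%). The choice of these genes by a test on the same arrays favours both the shared sign and the lack of overlap. Most called differences were small, with a median of 0.34 for the higher and -0.41 for the lower genes, and 38 and 71 of them reached 0.5. When each array was centred on 16 reference transcripts, which moved the median of all genes to -0.045, the split was 116 higher and 310 lower, or 27.2% of calls higher in place of 43.4%. Without the 0 h arrays 80 higher and 132 lower genes were called, without the 1 h arrays 96 and 119, and without the 4 h arrays 146 and 242.

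At single times the 2-fold genes numbered 6 higher (0.0598% of genes) and 17 lower (0.169%) at 0 h, 8 higher (0.0797%) and 14 lower (0.14%) at 1 h, and 26 higher (0.259%) and 18 lower (0.179%) at 4 h. These single-array differences have no test.

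A set of 11 genes was at least 2-fold apart in one direction at every time, 6 higher (0.0598% of genes) and 5 lower (0.0498%) in MyD88 KO, and limma called all 11, which the choice by the same values favours. Hgsnat, with a smallest difference of 1.07, and Marco, with 1.03, were just inside this limit, while Ifit2, with 0.98, and Gdf3, with 0.99, were just outside. At a limit of 0.5 there were 22 higher (0.219%) and 33 lower (0.329%) genes, and at 1.5 there were 3 (0.0299%) and 2 (0.0199%). The 6 higher genes were Npy, Qpct, Ifi44l, Gbp2b, Mfge8 and Hgsnat, and the 5 lower ones were Cxcl2, Fpr2, Nfkbiz, Pde4b and Marco. With values under log2 = 6 raised to 6, Ifi44l and Gbp2b no longer passed, since their TRIF KO levels lay below that floor. Gbp2b, at 6.99 in MyD88 KO at 0 h, then fell just short of 2-fold at that time, and limma still called it.

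The largest difference was that of Npy, the gene of neuropeptide Y, a peptide transmitter that macrophages can also make. Npy read 10.05, 10.17 and 10.03 at 0, 1 and 4 h in MyD88 KO, against 7.43, 7.62 and 7.81 in TRIF KO. Its level was nearly flat over time in both, the groups were far apart, and wild type (10.19, 9.77 and 9.75) lay with MyD88 KO. The mean difference was 2.46 ± 0.081 (SE, n = 3 times; limma, adjusted p = 4.14e-06).

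Qpct, which encodes glutaminyl cyclase, an enzyme that modifies the first residue of peptides and chemokines, behaved alike. It read 9.26, 9.50 and 9.45 in MyD88 KO and 7.24, 7.30 and 7.31 in TRIF KO. The difference stood at 2.02, 2.20 and 2.14, its mean was 2.12 ± 0.058 (limma, adjusted p = 1.73e-06), and wild type, at 9.07 to 9.28, again sat with MyD88 KO. Mfge8, the gene of a secreted bridge between dying cells and phagocytes, had 12.53, 12.48 and 12.41 in MyD88 KO, against 11.38, 11.30 and 11.23 in TRIF KO. Its difference stood at 1.15, 1.17 and 1.18, with a mean of 1.17 ± 0.052 (limma, adjusted p = 2.38e-05), and wild type, at 12.12 to 12.27, lay between the knockouts and nearer to MyD88 KO. Low levels of Npy, Qpct and Mfge8 thus marked the TRIF KO arrays, before LPS as after it.

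For the other higher genes wild type was on the TRIF KO side. Hgsnat, the gene of a lysosomal acetyltransferase that helps degrade heparan sulfate, read 10.01, 10.002 and 9.96 in MyD88 KO, against 8.91, 8.93 and 8.68 in TRIF KO and 8.78, 8.75 and 8.16 in wild type. Its mean difference was 1.15 ± 0.061 (limma, adjusted p = 4.99e-05). Ifi44l, an interferon-induced gene, read 6.43, 6.15 and 6.67 in MyD88 KO, against 4.63, 4.51 and 4.80 in TRIF KO, with wild type at 4.66 to 4.95. Its TRIF KO and wild-type values were all below the floor of log2 = 6 used above, though above the lowest values of the arrays, 2.91 to 3.03. Gbp2b, a guanylate-binding protein gene induced by interferons, read 6.99, 7.03 and 8.29 in MyD88 KO, against 5.70, 5.62 and 5.89 in TRIF KO and 5.70, 5.67 and 5.68 in wild type. The TRIF KO and wild-type values of Gbp2b were likewise all below that floor. Only its MyD88 KO array at 4 h stood apart from the other arrays of its genotype, and the mean difference was 1.70 ± 0.181 (limma, adjusted p = 0.00215).

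**Figure D1:**
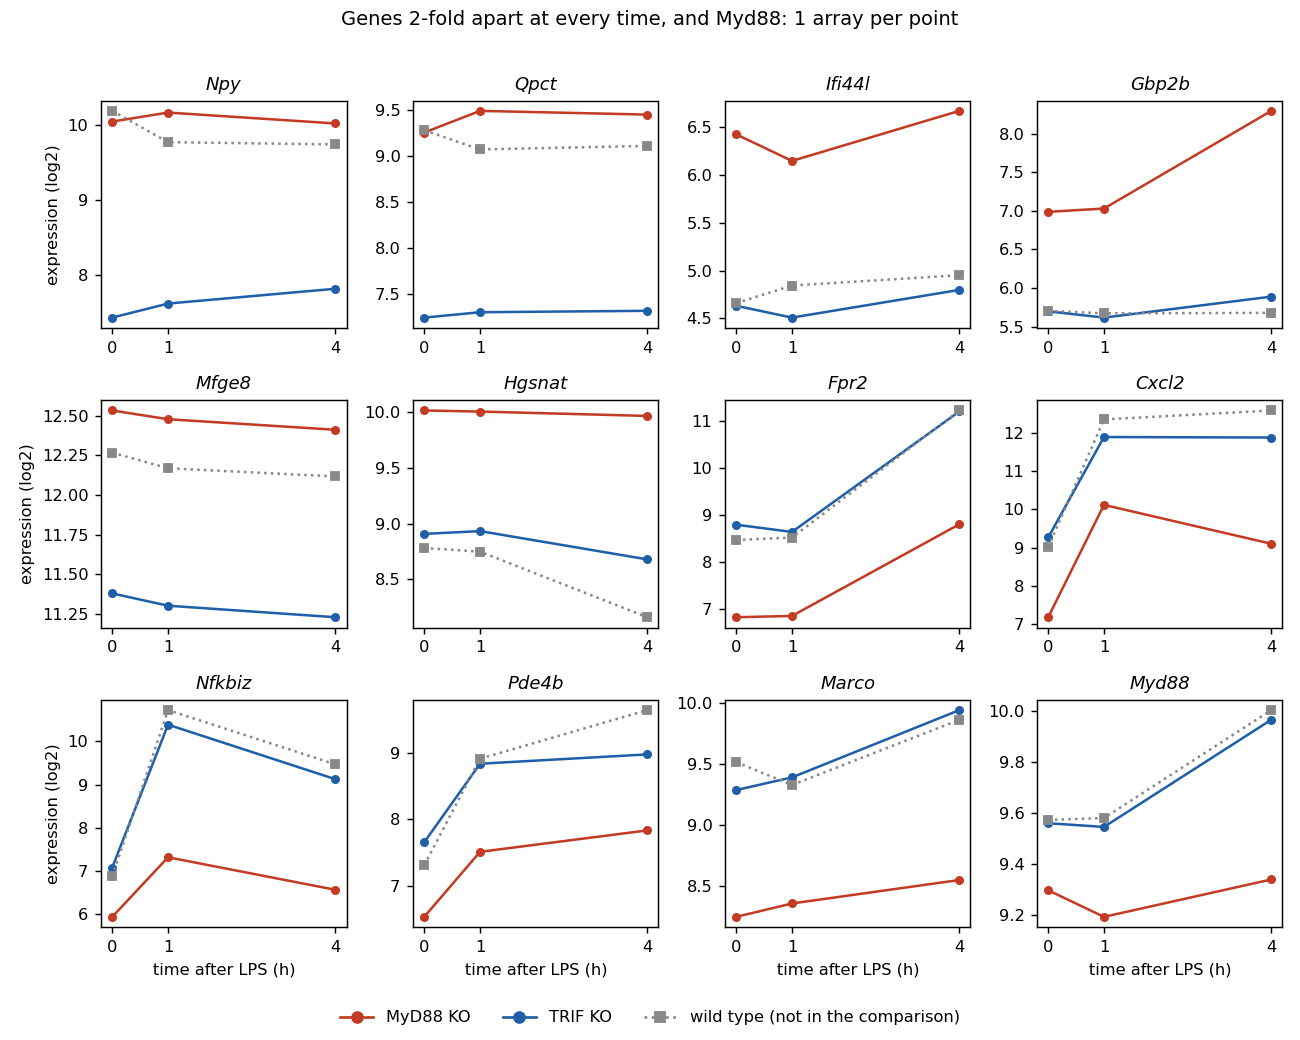
Level (log2, vertical axis; each panel has its own range) against time after LPS (h) for the 11 genes 2-fold apart at every time and for Myd88, with 1 array per point; MyD88 KO in red, TRIF KO in blue, wild type in dotted grey. Npy, Qpct and Mfge8 are nearly flat with TRIF KO low, Hgsnat, Ifi44l and Gbp2b have MyD88 KO high, and the 5 lower genes have MyD88 KO below both other genotypes at every time.

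Of the lower genes, Cxcl2, Fpr2, Nfkbiz and Pde4b were each more than 2-fold higher at 4 h of LPS than unstimulated in wild type. Cxcl2 encodes a chemokine that attracts neutrophils. It read 7.18, 10.12 and 9.10 in MyD88 KO at 0, 1 and 4 h, against 9.27, 11.90 and 11.88 in TRIF KO and 9.01, 12.36 and 12.59 in wild type. Cxcl2 was therefore low in MyD88 KO already without LPS, and it was higher at 1 h in both knockouts, so that only same-time arrays separate the groups. The mean difference was -2.22 ± 0.155 (SE, n = 3 times; limma, adjusted p = 0.000271).

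Fpr2 encodes a formyl peptide receptor that guides phagocytes to bacteria. Its level was 6.84, 6.86 and 8.81 in MyD88 KO, against 8.80, 8.65 and 11.20 in TRIF KO and 8.48, 8.53 and 11.22 in wild type. The level was higher at 4 h in each genotype, with 4 h changes of 1.97 for MyD88 KO, 2.40 for TRIF KO and 2.75 for wild type, but started lower in MyD88 KO, with a mean difference of -2.05 ± 0.103 (limma, adjusted p = 4.57e-05). Nfkbiz encodes an inducible nuclear IkB protein needed for a second wave of NF-kB targets, Il6 among them. It read 5.92, 7.31 and 6.55 in MyD88 KO, against 7.07, 10.39 and 9.12 in TRIF KO. The gap widened from unstimulated to stimulated cells, at -1.15, -3.08 and -2.57, with a mean of -2.27 ± 0.289 (limma, adjusted p = 0.00448), while a second probe set of the gene gave -1.29.

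The remaining pair was lower by a steadier amount. Pde4b, a phosphodiesterase that breaks down cyclic AMP, read 6.53, 7.51 and 7.83 in MyD88 KO, against 7.66, 8.84 and 8.98 in TRIF KO and 7.31, 8.92 and 9.65 in wild type. The difference was -1.20 ± 0.061 (limma, adjusted p = 4.57e-05), and a second probe set gave -0.68, which is short of 2-fold. Marco, a scavenger receptor for bacteria and particles, read 8.25, 8.36 and 8.55 in MyD88 KO, against 9.29, 9.39 and 9.94 in TRIF KO and 9.52, 9.33 and 9.86 in wild type. Every MyD88 KO array was below every array of the other genotypes, with a mean difference of -1.16 ± 0.078 (limma, adjusted p = 0.000219).

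Interferon-stimulated genes were the list with the most calls in the higher direction. Of 46 analysed members 15 were higher in MyD88 KO and 1, Lgals3bp, a secreted glycoprotein, was lower (-0.24; limma, adjusted p = 0.0442), beside 1.55% and 2.01% of all genes. These shares of all genes are the background for the list counts below too. An unadjusted p under 0.05 was seen for 1571 of the 10032 genes. The list median was 0.33, against -0.002 over all genes, and stood at 0.22, 0.22 and 0.52 at 0, 1 and 4 h. Without the 0 h arrays 10 were called higher, without the 1 h arrays 11, without the 4 h arrays 15, with values under log2 = 6 raised to 6 only 6, and after centring on the reference transcripts 24.

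Ifit1 and Ifit2 encode tetratricopeptide proteins that bind viral RNA or restrict translation. Ifit2 read 6.44, 6.79 and 8.62 in MyD88 KO, against 5.46, 5.36 and 5.77 in TRIF KO and 5.85, 5.82 and 7.87 in wild type. Ifit1 read 8.15, 8.26 and 10.40 in MyD88 KO, against 7.37, 7.35 and 8.06 in TRIF KO and 8.004, 7.69 and 10.40 in wild type. Both were above TRIF KO in unstimulated cells and further above at 4 h, with differences of 0.98, 1.43 and 2.85 for Ifit2 and 0.78, 0.92 and 2.34 for Ifit1. Their means were 1.75 ± 0.281 (limma, adjusted p = 0.0137) and 1.35 ± 0.249 (limma, adjusted p = 0.0260), and neither was called with low values raised to log2 = 6, although the values of Ifit1 all lie above that floor and its difference was still 1.35.

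Smaller but steadier differences were found for Oasl2, an antiviral protein of the oligoadenylate synthetase family, and Usp18, the protease that removes ISG15 and restrains interferon receptor signalling. Oasl2 had 8.60, 8.61 and 9.30 in MyD88 KO, against 7.71, 7.57 and 7.64 in TRIF KO. Usp18 had 8.10, 8.15 and 8.83 in MyD88 KO, against 7.33, 7.20 and 7.07 in TRIF KO. In TRIF KO neither was above its unstimulated level at 1 or 4 h, and the MyD88 KO arrays were above every TRIF KO array, with mean differences of 1.20 ± 0.127 (limma, adjusted p = 0.00213) and 1.16 ± 0.158 (limma, adjusted p = 0.0061).

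Other members with a large difference at 4 h did not pass the test over all times. The difference was -0.08, 0.33 and 1.80 for Cxcl10, a chemokine for T cells (limma, adjusted p = 0.293), 0.48, 0.60 and 2.10 for Rsad2, the antiviral enzyme viperin (0.0733), and 0.49, 0.58 and 2.07 for Ccl5, another T cell chemokine (0.0711). These 3 genes, with Ifit2 and Ifit1, had the largest increase of the difference from 0 to 4 h among the genes analysed. With 1 array per genotype and time this increase has no test.

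The machinery of interferon signalling itself was called in 1 of 17 members, beside 3.56% of all genes. An unadjusted p under 0.05 was found for 9 members, 4 higher and 5 lower. Stat2, a subunit of the factor that interferon receptors activate, was higher by 0.30 (limma, adjusted p = 0.0403) but was not called without the arrays of any one time (0.32 without 0 h, 0.36 without 1 h and 0.23 without 4 h). Irf1, with a difference of -0.32 (limma, adjusted p = 0.0765), and Ifnar1, a receptor chain, with -0.21 (0.151), did not pass.

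The interferon-stimulated response element, searched on both strands as GAAA, any 2 bases and GAAA again, lies in 14 of 159 RefSeq promoters of genes called higher (8.81%), 6 of 211 promoters of genes called lower (2.84%) and 335 of 10338 promoters of all genes analysed (3.24%). A promoter was available for 122 of the 155 higher and 163 of the 202 lower genes, some with several. Counted by gene, the motif lies in 12 of 122 higher genes (9.84%), 6 of 163 lower genes (3.68%) and 321 of 8083 genes analysed (3.97%). Gbp2b and Ifit1 are shown because they had the largest differences among the called higher genes with this motif. The 250 bases before the gene start are given 5′ to 3′ from RefSeq (GRCm38.p6), with the motif, here on the opposite strand, in capitals.
Gbp2b, chr3:142594597-142594846, plus strand: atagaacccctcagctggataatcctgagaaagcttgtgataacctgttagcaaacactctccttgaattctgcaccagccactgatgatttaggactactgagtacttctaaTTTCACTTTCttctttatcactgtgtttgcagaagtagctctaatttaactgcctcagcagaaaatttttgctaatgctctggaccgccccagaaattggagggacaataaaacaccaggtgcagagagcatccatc
Ifit1, chr19:34640639-34640888, plus strand: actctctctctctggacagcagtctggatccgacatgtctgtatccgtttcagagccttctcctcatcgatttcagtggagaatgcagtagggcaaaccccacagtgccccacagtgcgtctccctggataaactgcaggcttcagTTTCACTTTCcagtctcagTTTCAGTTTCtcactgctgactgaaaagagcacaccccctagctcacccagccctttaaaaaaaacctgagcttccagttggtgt
Gbp2b holds 1 copy and Ifit1 holds 2. A match is a description of these letters and not of a bound site.

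**Figure D2:**
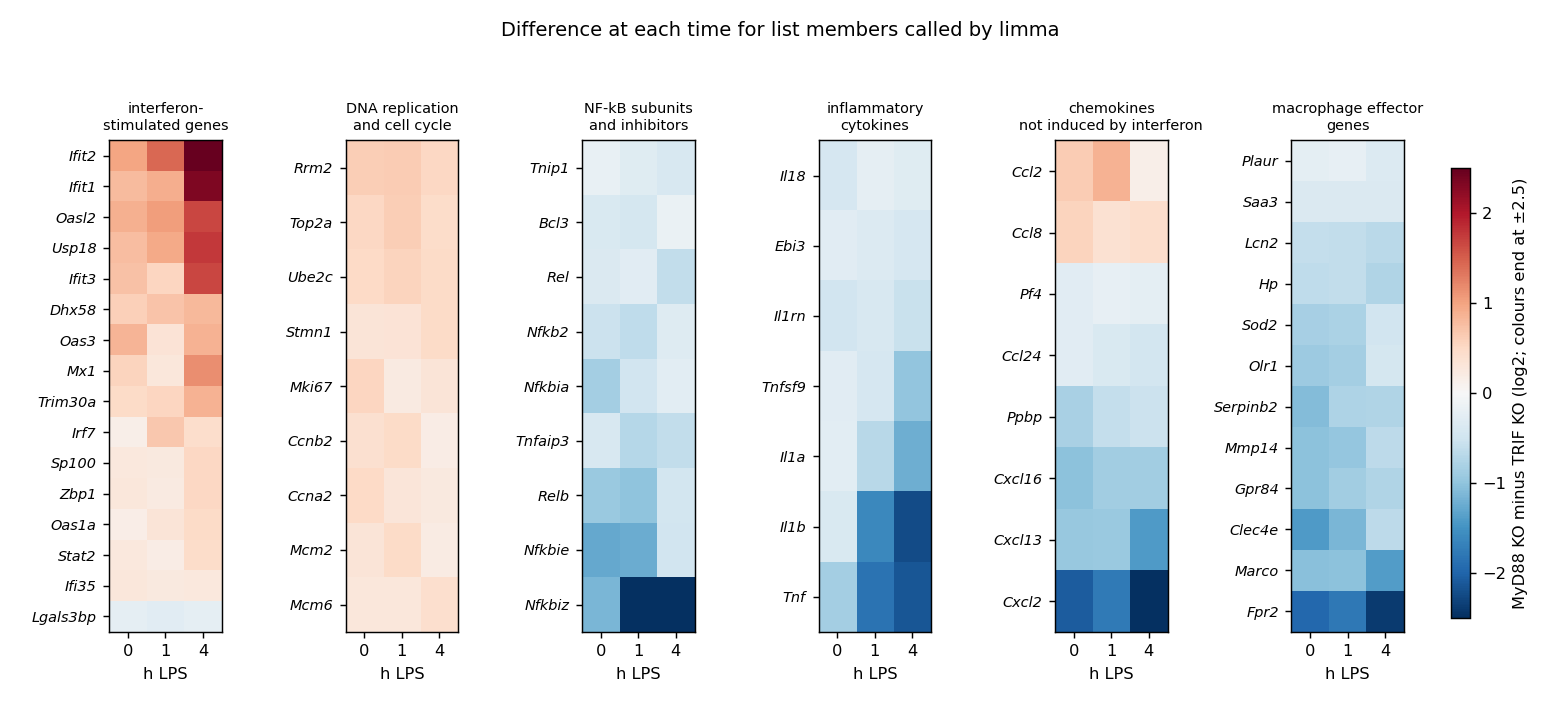
Difference (MyD88 KO minus TRIF KO, log2, colour scale) at 0, 1 and 4 h of LPS (columns) for the members of 6 gene lists that limma called (rows); red is higher and blue lower in MyD88 KO. Ifit2 and Ifit1 are deepest red at 4 h (2.85 and 2.34), the DNA replication genes are evenly pale red, and Nfkbiz, Tnf, Il1b and Cxcl2 are deepest blue after LPS.

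NF-kB subunits and inhibitors were called lower in 9 of 11 members and higher in 0 (also 0 at an unadjusted p under 0.05). All 11 were lower at every time. Of all genes, 2.01% were called lower and 1.55% higher, and 36.7% had the same sign at every time. The list median was -0.495, or -0.41, -0.48 and -0.41 at 0, 1 and 4 h. Without the 0 h arrays, or without the 1 h arrays, 6 members were called lower. Besides Nfkbiz these were the inhibitors Nfkbie, Nfkbia, Tnfaip3, Tnip1 and Bcl3, an atypical one, and the subunits Relb, Nfkb2 and Rel.

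Nfkbie, the gene of IkB-epsilon, which holds NF-kB in the cytoplasm, read 5.99, 6.47 and 8.03 in MyD88 KO, against 7.27, 7.70 and 8.51 in TRIF KO. Relb, a subunit of the alternative NF-kB pathway, read 7.48, 7.62 and 9.02 in MyD88 KO, against 8.41, 8.62 and 9.47 in TRIF KO. In both genes the gap was wide in unstimulated cells and narrower at 4 h, as their levels were higher at 4 h in either knockout. The mean difference was -0.998 ± 0.137 for Nfkbie (limma, adjusted p = 0.0063) and -0.79 ± 0.099 for Relb (limma, adjusted p = 0.00416). Tnfaip3, the gene of the deubiquitinase A20, which ends NF-kB signalling, had differences of -0.41, -0.72 and -0.62, with a mean of -0.58 ± 0.068 (limma, adjusted p = 0.00331).

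A kappaB motif, searched on both strands as GGGA, any 2 bases and TTCC, lies in 4 of 211 promoters of genes called lower (1.90%), 4 of 159 of genes called higher (2.52%) and 157 of 10338 of all genes analysed (1.52%). Some genes have several promoters. Counted by gene, the motif lies in 3 of 163 lower genes (1.84%), 3 of 122 higher genes (2.46%) and 142 of 8083 genes analysed (1.76%). The share of the lower genes was thus near that of all genes. Cxcl2 and Nfkbia, the gene of the main NF-kB inhibitor, had the largest differences among the called lower genes that hold it, and are shown in the same way.
Cxcl2, chr5:90903649-90903898, plus strand: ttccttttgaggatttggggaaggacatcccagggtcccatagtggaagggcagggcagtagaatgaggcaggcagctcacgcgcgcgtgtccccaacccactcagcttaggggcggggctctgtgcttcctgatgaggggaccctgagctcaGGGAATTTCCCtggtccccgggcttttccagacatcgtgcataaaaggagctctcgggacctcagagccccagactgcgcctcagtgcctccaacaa
Nfkbia, chr12:55492648-55492897, minus strand: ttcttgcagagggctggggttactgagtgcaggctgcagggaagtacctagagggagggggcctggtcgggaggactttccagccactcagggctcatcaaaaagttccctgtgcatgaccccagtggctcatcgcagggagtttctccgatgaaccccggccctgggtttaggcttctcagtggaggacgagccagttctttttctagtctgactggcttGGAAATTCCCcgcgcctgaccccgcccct
The capitals in Cxcl2 span 2 overlapping matches, and Nfkbia holds 1.

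Of 14 inflammatory cytokines 7 were lower and 0 higher (also 0 at an unadjusted p under 0.05), beside 2.01% and 1.55% of all genes. The median was -0.26, and 3 were called lower without the 1 h arrays. Tnf, a central inflammatory cytokine, read 8.82, 10.08 and 9.61 in MyD88 KO, against 9.66, 11.92 and 11.75 in TRIF KO and 9.54, 12.67 and 12.46 in wild type. Its mean difference was -1.61 ± 0.1996 (limma, adjusted p = 0.0041). Il1b, the gene of pro-interleukin 1 beta, read 6.61, 7.60 and 6.58 in MyD88 KO, against 6.99, 9.21 and 8.81 in TRIF KO. At 4 h Il1b was back at its unstimulated level in MyD88 KO alone, and the difference went with time as -0.37, -1.61 and -2.23. Its mean was -1.41 ± 0.272 (limma, adjusted p = 0.0312), it was not called without the 1 h arrays (-1.30), and Il1a (-0.72) and Tnfsf9 (-0.56) also lost their calls there.

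Among 18 chemokines listed apart from the interferon-stimulated genes, 6 were lower and 2 higher, beside 2.01% and 1.55% of all genes. The median was -0.23. The figures label this list as not induced by interferon, which was not tested for its members. The higher pair, named after their values were seen, was Ccl2 (0.55; limma, adjusted p = 0.0429) and Ccl8 (0.46; limma, adjusted p = 0.0041), both attractants of monocytes, and 1 was called higher without the 0 h or the 1 h arrays. Cxcl13, a B cell chemokine that resident peritoneal macrophages make, read 7.93, 8.16 and 8.62 in MyD88 KO, against 8.88, 9.08 and 10.03 in TRIF KO and 8.81, 8.91 and 9.88 in wild type. All its MyD88 KO arrays were lower than all others, and the mean difference was -1.10 ± 0.093 (limma, adjusted p = 0.00082). Cxcl1, another neutrophil chemokine, and Ccl3, a monocyte attractant, differed by -0.22, -2.33 and -2.95 and by -0.27, -0.75 and -1.95 at the 3 times. Neither passed (limma, adjusted p = 0.0517 and 0.0800), and their differences were small before LPS.

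The macrophage effector list, 29 genes of defence, migration and metabolism, had 12 lower and 0 higher (2 at an unadjusted p under 0.05). Among all genes 2.01% were lower and 1.55% higher. The list median was -0.315. Beside Fpr2 and Marco, Clec4e, the gene of the receptor Mincle for mycobacterial glycolipid, read 9.05, 9.72 and 12.07 in MyD88 KO, against 10.47, 10.85 and 12.73 in TRIF KO. Gpr84, which encodes a receptor of medium-chain fatty acids, read 7.22, 7.60 and 9.55 in MyD88 KO, against 8.26, 8.46 and 10.31 in TRIF KO. Both were higher at 4 h in either knockout, and the gap at that time was the smallest of the 3, at -0.66 for Clec4e and -0.76 for Gpr84. The mean differences were -1.07 ± 0.121 (limma, adjusted p = 0.00266) and -0.88 ± 0.065 (limma, adjusted p = 0.000376).

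Most receptors and signalling proteins upstream were not called, but calls in the lower direction were more frequent than among all genes (2.01%). Of 20 TLR4 signalling components, 3 were lower and 0 higher (1 at an unadjusted p under 0.05): Map3k8, the kinase Tpl2 that feeds the ERK pathway, at -0.78 ± 0.100 (limma, adjusted p = 0.00488), the LPS co-receptor Cd14 at -0.61 ± 0.061 (limma, adjusted p = 0.00155), and Ikbke, the kinase IKK-epsilon, at -0.42 ± 0.053 (limma, adjusted p = 0.00416). Of 11 other Toll-like receptors, Tlr2 and its partner Tlr1, which sense bacterial lipoproteins, were lower. Tlr2 read 8.11, 8.65 and 10.30 in MyD88 KO, against 9.61, 9.80 and 10.84 in TRIF KO, with a mean difference of -1.07 ± 0.148 (limma, adjusted p = 0.00691). The gap was widest in unstimulated cells. Tlr1 had a mean difference of -0.52 and lost its call without the 0 h arrays (-0.39), while Tlr6 (-0.16; limma, adjusted p = 0.195) and Tlr3 (0.14; 0.552) did not pass.

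Early and feedback regulators were called mostly in the lower direction, in which 2.01% of all genes were called (1.55% higher). Of 22 immediate early genes 5 were lower and Klf4, a zinc finger factor, was higher (0.43; limma, adjusted p = 0.0399), with a median of -0.14; 8 were lower without the 4 h arrays. Ier3, an early stress response gene, read 8.27, 9.14 and 8.75 in MyD88 KO, against 9.21, 10.42 and 9.78 in TRIF KO, without overlap. Its mean difference was -1.09 ± 0.071 (limma, adjusted p = 0.000186), and that of Maff, a small Maf factor, -0.59 ± 0.058 (0.00148). Without the 1 h arrays 2 immediate early genes were called lower and 0 higher.

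Of 17 signalling feedback regulators 7 were lower and 0 higher (2 at an unadjusted p under 0.05), beside 2.01% and 1.55% of all genes. The median was -0.21. Socs3, an inhibitor of cytokine receptor signalling, read 7.57, 7.95 and 7.67 in MyD88 KO, against 7.86, 8.91 and 9.29 in TRIF KO, so that the gap opened with LPS. Zc3h12a, the gene of the endonuclease Regnase-1, which degrades cytokine mRNAs, stayed at 6.23, 6.27 and 6.35 in MyD88 KO, against 6.61, 7.50 and 7.46 in TRIF KO. The differences were -0.96 ± 0.194 (limma, adjusted p = 0.037) and -0.90 ± 0.141 (limma, adjusted p = 0.0126). Without the 1 h arrays 3 feedback regulators were called lower, and Socs3 (-0.95) was not among them.

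**Figure D3:**
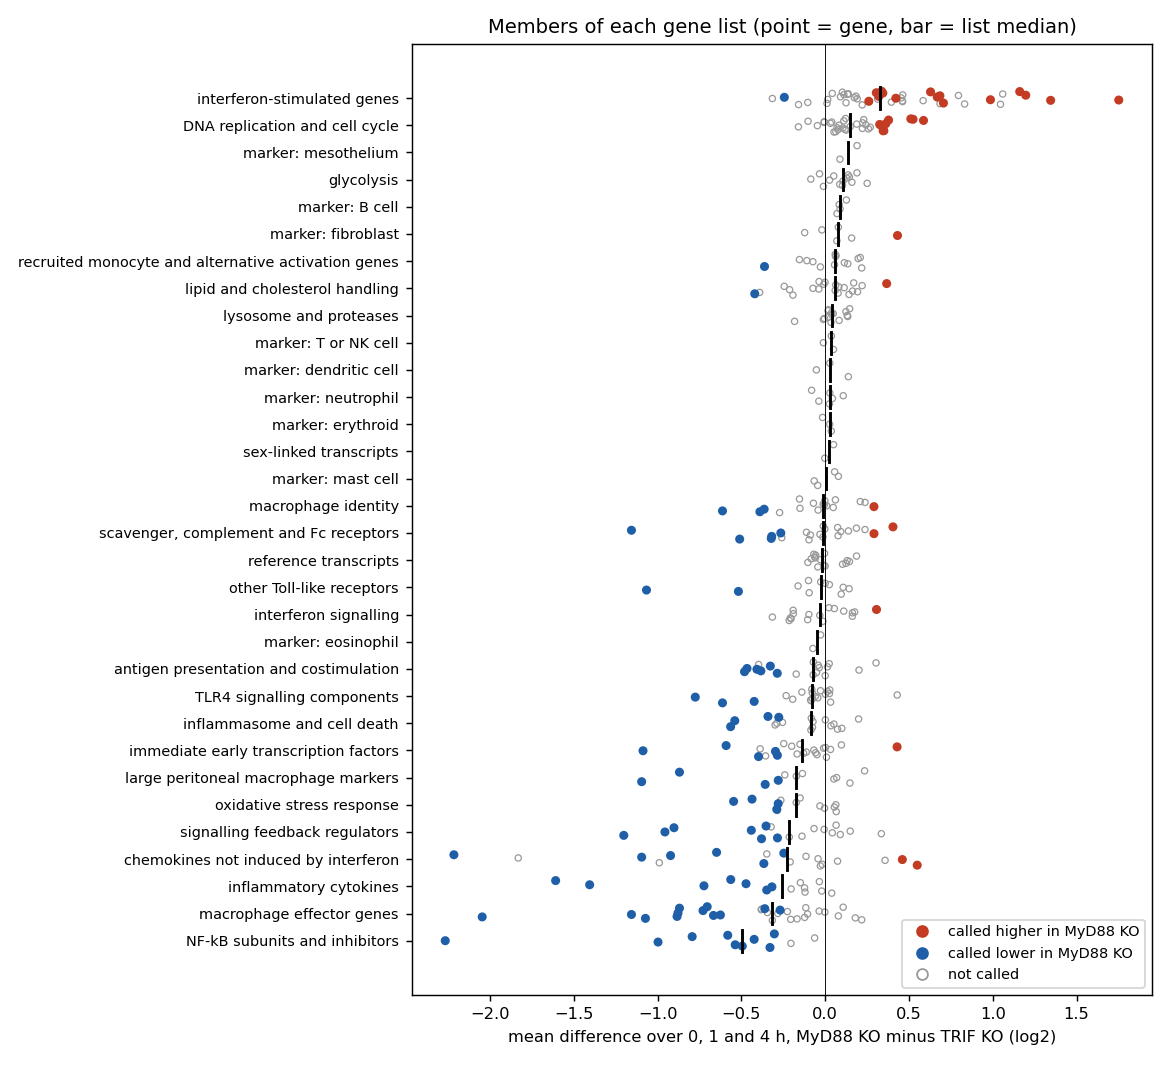
Mean difference over 0, 1 and 4 h (MyD88 KO minus TRIF KO, log2, horizontal axis) of each analysed member of the gene lists (rows, ordered by the list median, black bar); red and blue points were called higher and lower in MyD88 KO by limma, open points were not called. Interferon-stimulated genes reach furthest to the right with a median of 0.33, and NF-kB subunits and inhibitors lie furthest to the left with -0.495.

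Cell cycle and DNA replication genes were called in the higher direction. Of 35 analysed members 9 were higher in MyD88 KO and 0 lower (1 at an unadjusted p under 0.05). The shares over all genes were 1.55% higher and 2.01% lower. The list median was 0.15. Rrm2, the inducible subunit of the enzyme that makes deoxynucleotides, read 6.42, 6.62 and 6.32 in MyD88 KO, against 5.81, 5.99 and 5.80 in TRIF KO. Top2a, a topoisomerase of dividing cells, read 7.20, 7.09 and 7.19 in MyD88 KO, against 6.68, 6.48 and 6.74 in TRIF KO. The groups did not overlap and neither gene followed LPS, with mean differences of 0.59 ± 0.055 (limma, adjusted p = 0.0013) and 0.52 ± 0.056 (limma, adjusted p = 0.00222). Ube2c, a mitotic ubiquitin-conjugating enzyme, differed by 0.51 and Stmn1, a microtubule regulator, by 0.38. The count was 5 without the 0 h arrays and 6 without the 1 h arrays, and Top2a (0.20) and Stmn1 (0.24) were not called on the mean of all their probe sets.

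Antigen presentation and identity genes that were called differed by less than 0.5, except Cd14 (-0.61). Of 18 antigen presentation and costimulation genes 6 were lower and 0 higher (2 at an unadjusted p under 0.05). Among all genes 2.01% were called lower and 1.55% higher. The list median was -0.07. H2-Ab1 and H2-Aa, the chains of MHC class II, had mean differences of -0.47 and -0.41 (limma, adjusted p = 0.0074 and 0.0135), and Cd83, a maturation marker, one of -0.48 (0.00228). H2-Ab1 had 10.40, 10.58 and 10.77 in MyD88 KO, against 11.02, 11.03 and 11.10 in TRIF KO. Of 17 macrophage identity genes 3 were lower, Cd14, Aif1 and Cebpb, and Fcgr1 was higher, with a median of -0.012. Without the 0 h or the 1 h arrays Cd14 alone was called, and Fcgr1 was not called without the arrays of any one time. Of 11 markers of large resident peritoneal macrophages 4 were lower and 0 higher (1 at an unadjusted p under 0.05), namely Cxcl13, Serpinb2, Alox15 and F10. Without the 1 h arrays 2 were called, and F10 was not called without the arrays of any one time. The 11 summed to a linear 12900 to 13400 in MyD88 KO and 13300 to 14900 in TRIF KO, and their part in the result for Cxcl13 was not tested.

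Scavenger, complement and Fc receptor genes moved both ways, with 2 of 21 higher and 5 lower, beside 1.55% and 2.01% of all genes. Without the 0 h arrays 1 was higher and 3 lower, without the 1 h arrays 1 and 2, and without the 4 h arrays 1 and 5. C1qa, a chain of the complement component C1q, read 11.92, 12.03 and 11.98 in MyD88 KO, against 12.44, 12.55 and 12.47 in TRIF KO, a difference of -0.51 ± 0.052 (limma, adjusted p = 0.00174). Trem2, a lipid-sensing receptor of phagocytes, read 12.01, 11.91 and 11.73 in MyD88 KO, against 11.65, 11.48 and 11.32 in TRIF KO, a difference of 0.40 ± 0.053 (limma, adjusted p = 0.00496). A second probe set of Trem2 gave 0.10. Of 13 oxidative stress genes 4 were lower and 0 higher (also 0 at an unadjusted p under 0.05), led by the cystine transporter Slc7a11 (-0.55; limma, adjusted p = 0.0128), and 2 were called without the 0 h or the 1 h arrays. Of 17 inflammasome and cell death genes 4 were lower and 0 higher (1 at an unadjusted p under 0.05). They were led by the apoptosis inhibitor Birc3 (-0.56, limma adjusted p = 0.00248) and the sensor Nlrp3 (-0.54, limma adjusted p = 0.0221). Without the 1 h arrays 1 was called, not Nlrp3, and Birc3 was not called on the mean of all its probe sets.

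Lipid genes had 1 call in each direction among 21, beside 1.55% of all genes called higher and 2.01% lower. Apoe, the gene of apolipoprotein E, was lower (-0.42; limma, adjusted p = 0.00448), with 13.60, 13.60 and 13.46 in MyD88 KO, against 14.08, 13.99 and 13.86 in TRIF KO and 13.57, 13.47 and 13.42 in wild type. Wild type thus lay with MyD88 KO. Scd2, a fatty acid desaturase, was higher by 0.37 (limma, adjusted p = 0.0103), but was not called without the 1 h arrays or on the mean of its probe sets (0.22). Without the 4 h arrays 2 lipid genes were higher and 3 lower. Limma called 0 of 15 lysosomal genes, 0 of 14 glycolysis genes and 0 of 16 reference transcripts, of which 4, 5 and 4 had an unadjusted p under 0.05.

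The wild-type arrays were not in the fit, although they counted in the filter on low values and in the choice of probe sets, so a gene high only in wild type could enter through them. In wild type 123 genes were at least 2-fold higher at 4 h than unstimulated (1.23% of genes), and of these 62 (50.4%) were called lower and 5 (4.07%) higher in MyD88 KO than in TRIF KO. Of 46 genes at least 2-fold lower at 4 h in wild type (0.459%), 9 were called higher (19.6%) and 2 lower (4.35%). The median wild-type change at 4 h was -0.24 for genes called higher, 0.43 for genes called lower and 0.01 for all genes. Wild type was nearer to TRIF KO than to MyD88 KO, by the mean over the 3 times, for 121 of the 155 higher genes (78.1%) and 157 of the 202 lower genes (77.7%), against 57.0% of all genes.

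**Figure D4:**
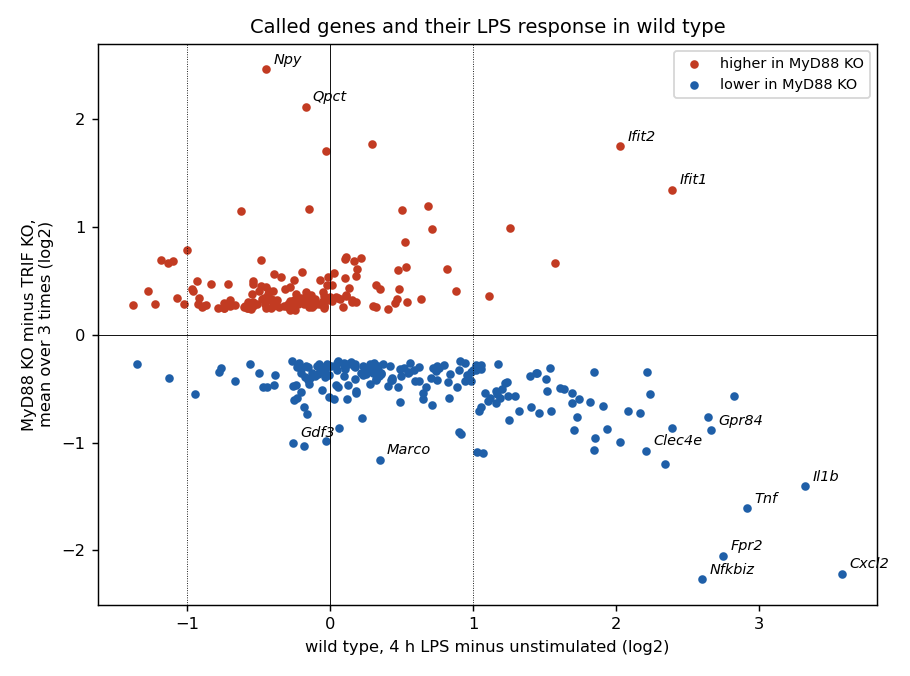
Mean difference of the 357 called genes (MyD88 KO minus TRIF KO, log2, vertical axis) against the wild-type change from unstimulated to 4 h of LPS (log2, horizontal axis; dotted lines at 2-fold); red is higher and blue lower in MyD88 KO. Of the genes called lower 30.7% lie right of the 2-fold line, of those called higher 3.23%, among them Ifit2 and Ifit1, and Npy and Qpct lie high near a wild-type change of 0.

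A knockout line can carry a chromosome segment of another strain around the targeted gene, so the genes beside each targeted gene were taken in chromosome order. Whether such segments differ between these lines was not tested. Around Myd88 on chromosome 9, 2 of 91 neighbours were called (2.2%): Ccrl2, an atypical chemoattractant receptor, lower (-0.63; limma, adjusted p = 0.00278), and the chemokine receptor Ccr1, higher by 0.24 (0.0481). Ccr1 lost its call under 9 of 12 alternatives, among them leaving out any one time. Around Ticam1 on chromosome 17, 7 of 100 neighbours were called (7.0%), 3 higher and 4 lower, beside 3.56% of all genes and 5.17% of chromosome 17. Lrg1, a secreted leucine-rich glycoprotein that lies 5 analysed genes from Ticam1, had 7.50, 7.60 and 7.54 in MyD88 KO, against 8.35, 8.45 and 8.44 in TRIF KO and 7.56, 7.46 and 7.62 in wild type. The 3 TRIF KO arrays alone were high, and the difference of -0.86 ± 0.052 (limma, adjusted p = 0.000121) hardly varied with time. Trem2, Ptprs, Plin3, Tnfsf9, Adgre4 and Ebi3 were the other called neighbours. Lrg1 and Trem2 were called whichever time was left out. Plin3 was not called without the arrays of any one time (8 of 12 alternatives lost it), Ptprs without the 0 h or the 1 h arrays or on the mean of its probe sets, Adgre4 without the 0 h arrays, and Ebi3 and Tnfsf9 without the 1 h arrays. The whole of chromosome 17 had 26 called genes among 503 (5.17%), near the 5.18% of chromosome 16. Some of them lie outside the 50 genes counted on each side. Among those named above are Qpct, 68 analysed genes after Ticam1, and, before it, Nfkbie (-76), Ier3 (-110), Tnf (-120), Aif1 (-123), H2-Aa (-163), H2-Ab1 (-164) and Fpr2 (-364). This is a selection, and the other called genes of the chromosome are not listed.

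**Figure D5:**
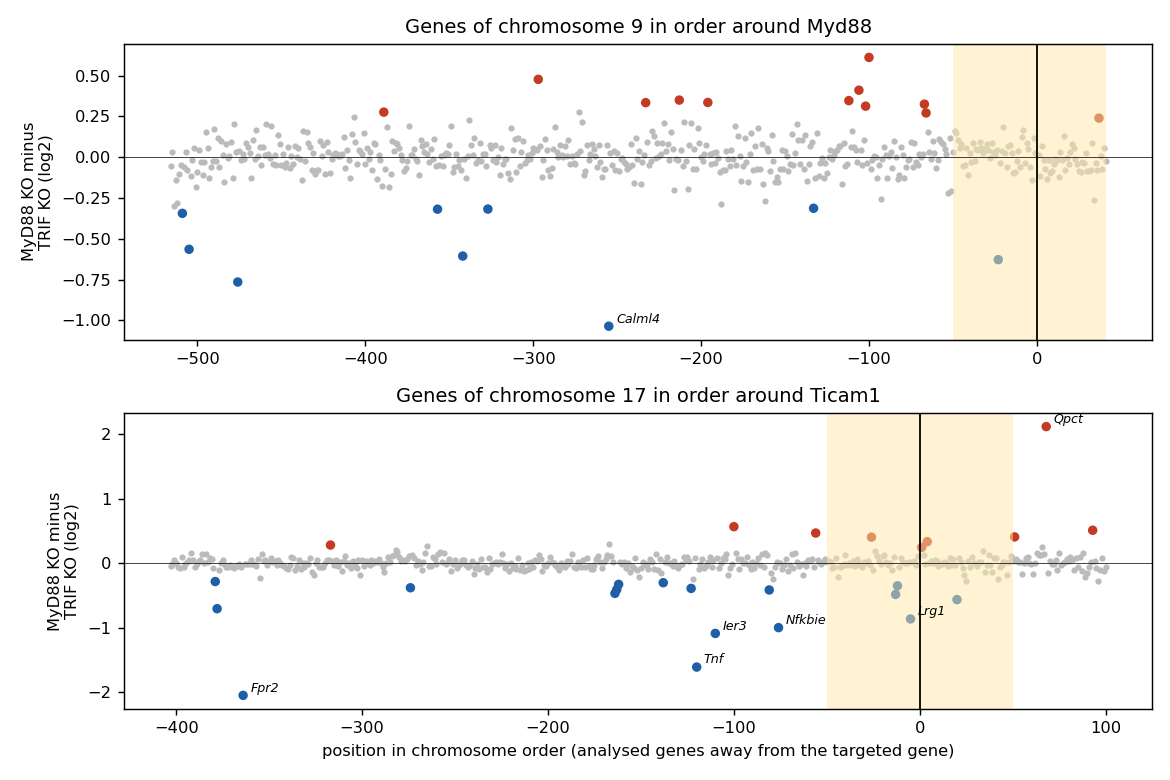
Mean difference (MyD88 KO minus TRIF KO, log2, vertical axis) of the genes of chromosome 9 around Myd88 (top) and of chromosome 17 around Ticam1 (bottom), in chromosome order (horizontal axis, analysed genes away from the targeted gene; shaded, up to 50 on each side); called genes are red (higher) or blue (lower), others grey. Lrg1, at -0.86, is the neighbour of Ticam1 with the largest difference, and Qpct, at 2.12, lies outside the shading.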

How the data were processed

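Total RNA was labelled with biotin, per the labels' protocols, and hybridised to Affymetrix mouse arrays of 22690 probe sets. The authors deposited log2 values, and the submitters' processing notes name RMA as the method. Neither its version nor a joint run of the 9 arrays is stated. RMA sets the arrays to a common distribution, so a global shift of RNA would not be seen. The values were used as deposited.

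Gene names came from GEO's platform annotation, updated through a RefSeq gene table (GRCm38.p6): 20393 had 1 symbol, 691 several and 1606 were not listed, and 20364 symbols were found in RefSeq. Of several probe sets of a gene (4958 genes), the one with the highest 9-array mean was kept, and a gene needed a maximum of log2 = 6. Of 215 other probe sets of called genes, 200 had the same sign.

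limma 3.58.1 (R 4.3.3; lmFit and eBayes without trend) fitted genotype and time to the 6 knockout arrays, with 2 residual and 6.31 prior degrees of freedom, two-sided, with Benjamini-Hochberg adjustment. On simulated data for this comparison (200 of 10032 genes changed) it recovered 61.5% of genes changed by 0.5 (log2) and 93.5% of those changed by 1, with 2 and 5 false calls. Errors are standard errors.

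The comparison, gene lists and named genes were chosen with earlier results of these data known. Named were the targeted genes, genes 2-fold apart at every time, the 10 highest and 10 lowest called, up to 4 members of each list (2 for markers), called neighbours of the targeted genes, and 5 genes each whose difference rose or fell most from 0 to 4 h. Nfkbia, Ccl2, Ccl8, Lgals3bp, Bcl3, Nfkb2, Rel, Tnip1 and Gdf3 were named after their values were seen.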

Additional observations from a re-analysis of the deposited data

Results flagged for a closer look

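Among 1433 probe sets without a single gene name that reach log2 = 6, which the comparison left out, 2 were 2-fold apart at every time. Probe set 1423555_a_at had a mean difference of 2.328 (log2), with 7.06, 6.99 and 7.68 at 0, 1 and 4 h in MyD88 KO, against 4.86, 4.97 and 4.92 in TRIF KO and 4.96, 5.05 and 5.34 in wild type. Probe set 1452426_x_at had a mean difference of -1.37, with 4.42, 4.70 and 4.76 in MyD88 KO, against 5.70, 6.01 and 6.28 in TRIF KO and 4.95, 5.24 and 5.15 in wild type. In the first the MyD88 KO arrays stood apart from all others, and in the second the TRIF KO arrays did.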

How the results depend on the processing

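All 357 calls kept their sign under each alternative that tested them, which was largely fixed in advance. Dropping the time block, adding the wild-type arrays or using an eBayes trend leaves the mean difference as it is. Leaving out 1 time cannot reverse it, since the differences of these genes had the same sign at all 3 times. Without the time block 17 genes were called higher and 16 lower, and 61 of 72 named calls were lost, since changes with time then count as error. With all 9 arrays in the fit 102 were higher and 138 lower, with values under log2 = 6 raised to 6 there were 86 and 130, with centring on the reference transcripts 116 and 310, and with an eBayes trend 227 and 288. The floor at log2 = 6 also gave 5 higher replication genes in place of 9. Lower cytokines and lower feedback regulators numbered 4 each in place of 7, and lower NF-kB subunits and inhibitors 6 in place of 9. There were 2 lower immediate early genes in place of 5 and 2 inflammasome genes in place of 4 (7 with centring). Identity genes gave 1 in place of 3 and other Toll-like receptors 1 in place of 2. Among the genes that lost their call, Cebpb, Aif1, Tlr1 and Myd88 lay above log2 = 6 on all 6 knockout arrays. Their differences were unchanged, so only the refitted error or the adjustment moved. Leaving out 1 time gave 80 to 146 higher and 119 to 242 lower genes; it keeps 195 (without 0 h), 189 (without 1 h) or 280 (without 4 h) of the 357. Genes 2-fold lower at every time numbered 7 to 10 and genes 2-fold higher 6 to 8 when 1 time was left out. At a limit of 0.5 at every time there were 22 higher and 33 lower, and at 1.5 there were 3 and 2. No filter on low values, a mean of at least log2 = 7, a second quantile normalization and the mean of all probe sets gave counts within 1.5 times those reported. With 1 array per genotype and time, calls rest on small errors: the prior standard deviation was 0.0725, and levels near the low end of the arrays bound what can be measured.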

Other observations

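Sex-linked transcripts overlapped between the knockouts. Xist, expressed from the inactive X chromosome of females, read 10.72, 10.73 and 10.91 at 0, 1 and 4 h in MyD88 KO, against 10.71, 10.81 and 10.68 in TRIF KO (limma, adjusted p = 0.804). Kdm5d, a gene of the Y chromosome, read 6.23, 5.99 and 6.05 in MyD88 KO, against 6.02, 6.17 and 6.07 in TRIF KO (limma, adjusted p = 0.991).

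Gdf3, a growth factor of the TGF-beta superfamily, and Calml4, a calmodulin-like gene, were near 2-fold apart at every time, with a smallest difference just under it (0.9945 and 0.9552), and were nearly flat over time; they were chosen after their values were seen. Gdf3 read 9.91, 9.91 and 9.86 in MyD88 KO, against 10.92, 10.90 and 10.86 in TRIF KO and 9.61, 9.40 and 9.35 in wild type, a difference of -1.001 ± 0.052 (SE, n = 3 times; limma, adjusted p = 4.73e-05). The TRIF KO arrays stood above both other genotypes. Calml4 read 5.84, 6.06 and 5.78 in MyD88 KO, against 6.89, 7.02 and 6.88 in TRIF KO and 7.23, 7.03 and 7.05 in wild type, and here the MyD88 KO arrays alone were low.

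Arg1 and Mrc1, genes of alternative activation, were near each other in the knockouts and lower in wild type. They are from a list of 14 analysed genes of recruited monocytes and alternative activation. Of these, 0 were called higher and 1 lower, beside 1.55% and 2.01% of all genes. The called member was Ccl24 (-0.37, limma adjusted p = 0.0126), which was not called without the 1 h arrays. Arg1 read 12.77, 12.86 and 12.58 in MyD88 KO and 12.60, 12.61 and 12.35 in TRIF KO (limma, adjusted p = 0.0708), against 11.92, 11.92 and 11.60 in wild type. Mrc1 read 10.17, 10.30 and 10.15 in MyD88 KO and 9.99, 10.12 and 9.88 in TRIF KO (limma, adjusted p = 0.0845), against 9.49, 9.64 and 9.37 in wild type.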
